A study of Mus musculus with 6 samples.

Results

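The cytosolic DNA and RNA sensing pathway was examined through 8 genes, Mb21d1, Tmem173, Trex1, Tbk1, Irf3, Mavs, Tlr3 and Samhd1, out of 23358 rows of the gene count table. They were chosen by name, with earlier results of these data known. Of the 8 symbols 7 stood in the table as written. The gene for cGAS, Mb21d1, was listed there under its older symbol E330016A19Rik, which the RefSeq gene table gives as a synonym at the same place on chromosome 9, and its row was used. All 8 genes passed the filter on low counts, which left 13784 genes to test.

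RNA was sequenced from MC3T3-E1 cells, a mouse pre-osteoblast line derived from the calvaria of C57BL/6 animals. Confluent cultures were exposed for 16 h to NU7441 at 1 µM, which blocks the DNA-dependent protein kinase (DNA-PK), or to its solvent DMSO, with 3 samples per group. No genetic change was labelled in either group, and all samples came from this 1 line. Per the series' design text, the RNA of triplicates from each independent experiment was pooled, and nothing says that the sample numbers stand for separate experiments. The p-values therefore measure only how far these sequenced samples spread, which may be technical.

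Cells carry sensors for nucleic acid that appears where it should not be. The enzyme cGAS binds double-stranded DNA in the cytosol and makes the second messenger cGAMP, which activates STING, an adaptor of the endoplasmic reticulum. RIG-I and MDA5 bind viral or misplaced RNA and signal through MAVS on mitochondria, and TLR3 binds double-stranded RNA in endosomes. These routes meet at the kinase TBK1, which phosphorylates the transcription factor IRF3 and so switches on type I interferon and related genes. The enzymes TREX1 and SAMHD1 act in the other direction. TREX1 degrades DNA in the cytosol, SAMHD1 breaks down deoxynucleotides, and loss of either raises interferon signalling. DNA-PK itself has been described as a DNA sensor in some cell types.

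Totals lay between 47312968 and 71292628 counts per sample. The osteoblast identity of the line was visible in its transcripts, with all 8 osteoblast markers detected and a summed level of 49370 to 52080 counts per 1e6 counts (CPM) in DMSO and 50800 to 52600 in NU7441. Of 10 macrophage and dendritic cell markers 3 were at 0 in every sample, Ptprc, Adgre1 and Clec9a, and the list summed to 11.4 to 11.7 CPM in DMSO and 12.5 to 13.0 in NU7441, nearly all of it from Lyz2, Cd74, Cd14 and Csf1r. Of its 5 tested genes 1 rose, Cd14, a lipopolysaccharide co-receptor, from 1.85 ± 0.114 to 2.66 ± 0.224 CPM (0.52 ± 0.15 on the log2 scale, edgeR adjusted p = 0.0164), which did not hold without DMSO replicate 3 (adjusted p = 0.0537). Of 7 lymphocyte markers Cd3e and Ms4a1 were at 0 in every sample, and that list summed to at most 0.805 CPM. The lists for endothelial, epithelial, and adipocyte and chondrocyte cells summed to at most 0.551, 3.2 and 12.1 CPM. In a bulk culture a smaller number of expressing cells and less RNA per cell cannot be told apart.

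The sensor cGAS fell in NU7441, Samhd1 and Trex1 rose slightly, and Tmem173, Tbk1, Irf3, Mavs and Tlr3 did not pass the test. Mb21d1 fell by 40.4%, Samhd1 rose by 12.7% and Trex1 rose by 21.0%. Of the 8 genes 2 were therefore called higher and 1 lower (edgeR's quasi-likelihood test, Benjamini-Hochberg adjusted p below 0.05). Over all tested genes 14.1% were called higher and 16.6% lower, 30.7% in either direction, so that the number of calls among these 8 genes was near the background. Their median log2 fold change was 0.02, against 0.01 over all tested genes.

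**Figure D1:**
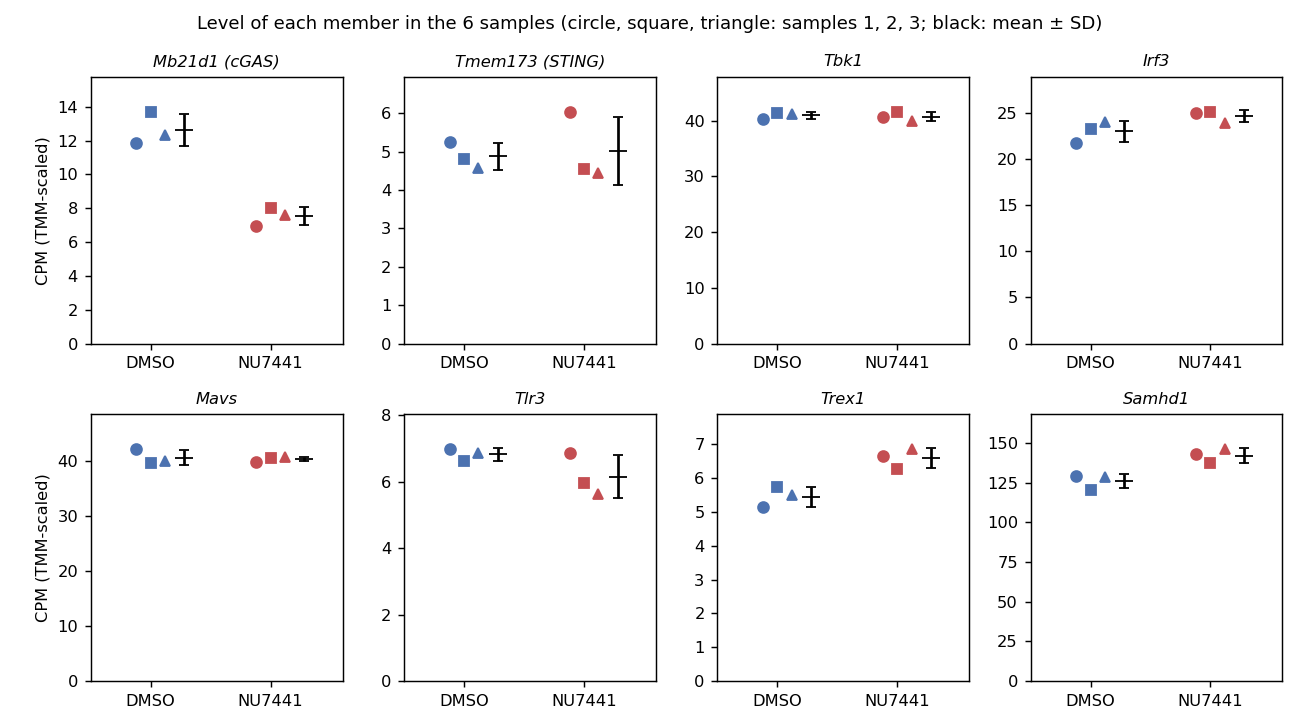
Level of each of the 8 genes in CPM with TMM-scaled library sizes (vertical axes, each from 0) in the DMSO samples (blue) and the NU7441 samples (red); circles, squares and triangles are samples 1, 2 and 3, and the black bars are the mean and SD. The groups are separate for Mb21d1, Trex1 and Samhd1 and overlap for the other 5 genes.

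The 250 bases before the annotated start of the cGAS gene and of Samhd1 are given here because Mb21d1 had the largest fall and Samhd1 the rise with the lowest adjusted p among the 8 genes. Both are RefSeq sequences of GRCm38.p6, 5′ to 3′ on the gene's own minus strand, from chr9:78443238-78443487 and chr2:157135097-157135346. The RefSeq start of Samhd1 lies inside the gene as the count table bounds it, so that part of its window is within those bounds. Capitals mark a match to 1 of the motifs searched, which are described after them.
Mb21d1: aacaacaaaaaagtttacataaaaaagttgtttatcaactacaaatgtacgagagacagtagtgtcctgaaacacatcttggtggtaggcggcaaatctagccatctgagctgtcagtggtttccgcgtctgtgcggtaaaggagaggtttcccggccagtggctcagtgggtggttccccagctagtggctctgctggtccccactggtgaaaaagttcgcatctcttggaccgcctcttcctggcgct
Samhd1: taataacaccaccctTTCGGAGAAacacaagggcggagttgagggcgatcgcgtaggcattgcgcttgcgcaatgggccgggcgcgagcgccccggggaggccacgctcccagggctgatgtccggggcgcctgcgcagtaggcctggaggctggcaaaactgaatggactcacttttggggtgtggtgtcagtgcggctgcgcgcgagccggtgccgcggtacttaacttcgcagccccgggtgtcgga

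Windows of 250 bases before and 50 after a start were searched on both strands for the core of the interferon-stimulated response element (GAAA, any 2 bases, GAAA), the interferon gamma activated site (TTCNNNGAA), an E2F site (TTTCGCGC or TTTGGCGC) and an AP-1 site (TGANTCA). The table held 8 windows for 7 of the genes, with 2 for Trex1. The only match was TTCGGAGAA in the Samhd1 window, starting 235 bases before its start (position -235), which has the letters of the interferon gamma activated site and overlaps no other motif searched. Of 32851 windows of all genes 8.3% held that motif, 3.44% the response element core, 0.813% an E2F site and 7.81% an AP-1 site. The match is a matter of letters and not evidence of binding, and the windows without a match say only that these letters are not in them.

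The cGAS gene (mm10 chromosome 9, 78430518 to 78443147, minus strand, ENSMUSG00000032344.17) was covered by 660, 650 and 886 counts under DMSO and by 364, 436 and 396 under NU7441. Scaled to depth, Mb21d1 stood at 11.9, 13.7 and 12.3 CPM in DMSO and at 6.95, 8.01 and 7.59 CPM in NU7441. Every NU7441 sample lay below every DMSO sample, and the gap between the groups was wider than the range within either. The mean went from 12.6 ± 0.944 to 7.52 ± 0.534 CPM (SD, n = 3), which corresponds to -0.75 ± 0.08 as a log2 fold change (SE; 95% interval -0.92 to -0.57; edgeR, adjusted p = 5.41e-06). Of all tested genes 2.51% had a more negative log2 fold change. When single libraries were left out, the log2 fold change of Mb21d1 lay between -0.79 and -0.69. Gm8093, a transcribed pseudogene on the opposite strand, shares 201 exonic bases with the gene in GENCODE M21 and has no row in the table. The sources used here do not say whether counting was strand-specific. If it was not, reads of Gm8093 from the shared bases cannot be told apart from those of Mb21d1.

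Downstream of cGAS, the STING gene Tmem173 (chromosome 18, 35733678 to 35740554, minus strand) was low and did not differ between the groups beyond their spread. Its level was 5.25, 4.80 and 4.57 CPM in DMSO and 6.03, 4.56 and 4.44 CPM in NU7441, from 228 to 328 counts per sample. NU7441 replicate 1 was the highest sample, and the other 2 NU7441 samples were the lowest. For Tmem173 the log2 fold change came to 0.04 ± 0.13 (edgeR, adjusted p = 0.845) with a 95% interval from -0.23 to 0.31, which leaves room for a change of that size in either direction. Without NU7441 replicate 1 it was -0.11, and without DMSO replicate 3 it was -0.01.

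The kinase gene and the gene of the mitochondrial adaptor had the smallest log2 fold changes of the 8. Tbk1 (chromosome 10, 121546456 to 121586794, minus strand) stood at 40.2, 41.4 and 41.3 CPM in DMSO and 40.6, 41.6 and 39.9 CPM in NU7441, for which the log2 fold change came to -0.01 ± 0.03 (edgeR, adjusted p = 0.875, 95% interval -0.08 to 0.06). Mavs (chromosome 2, 131234063 to 131248024, plus strand) stood at 42.2, 39.6 and 40.1 CPM in DMSO and 39.9, 40.5 and 40.7 CPM in NU7441, also -0.01 ± 0.04 (edgeR, adjusted p = 0.885, 95% interval -0.09 to 0.07). For both genes the samples of the groups were interleaved, and the sign of the log2 fold change turned under some settings.

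Irf3 (chromosome 7, 44997648 to 45002848, plus strand) had 21.8, 23.3 and 24.0 CPM in DMSO and 25.1, 25.1 and 24.0 CPM in NU7441. The groups met at their edges, with the highest DMSO sample just above the lowest NU7441 sample. For Irf3 the log2 fold change came to 0.10 ± 0.05 (edgeR, adjusted p = 0.127), and its 95% interval reached from -0.0005 to 0.20. Bcl2l12, on the opposite strand, shares 88 exonic bases with Irf3 in the annotation and did not pass either (-0.16 ± 0.10 on the log2 scale, edgeR adjusted p = 0.257).

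The endosomal receptor gene Tlr3 (chromosome 8, 45395665 to 45410539, minus strand) had 6.98, 6.61 and 6.88 CPM in DMSO and 6.87, 5.95 and 5.63 CPM in NU7441. NU7441 replicates 2 and 3 lay below all DMSO samples, whereas NU7441 replicate 1 lay among them. For Tlr3 the log2 fold change came to -0.15 ± 0.10 (edgeR, adjusted p = 0.267, 95% interval -0.36 to 0.05), and without NU7441 replicate 1 it was -0.24. An antisense gene, Gm45542, shares 381 exonic bases with Tlr3 and has no row in the table.

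Samhd1 (chromosome 2, 157097529 to 157135222, minus strand) rose. It had 128.9, 120.5 and 128.6 CPM in DMSO and 143, 137.1 and 146 CPM in NU7441. All NU7441 samples were above all DMSO samples. The mean of Samhd1 went from 126 ± 4.71 to 142 ± 4.55 CPM, or 0.17 ± 0.03 as a log2 fold change (edgeR, adjusted p = 0.00142, 95% interval 0.10 to 0.25), and 17.8% of tested genes had a larger rise.

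Trex1 (chromosome 9, 109057932 to 109059723, minus strand) had 5.15, 5.73 and 5.49 CPM in DMSO and 6.64, 6.28 and 6.86 CPM in NU7441, from 272 to 394 counts per sample. The groups did not overlap, and the log2 fold change came to 0.27 ± 0.09 (edgeR, adjusted p = 0.0359, 95% interval 0.08 to 0.47). The gene no longer passed without DMSO replicate 1 (adjusted p = 0.127), DMSO replicate 3 (0.075), NU7441 replicate 1 (0.0762) and NU7441 replicate 3 (0.112), with log2 fold changes for Trex1 between 0.24 and 0.28. Nor did it pass with DESeq2 (adjusted p = 0.0644), and over all alternatives the adjusted p of Trex1 ran from 0.0213 to 0.127. Transcripts of Atrip, a checkpoint gene on the same strand, cover 1147 exonic bases of Trex1 in GENCODE M21, so that reads of these 2 genes cannot be told apart by strand. The Trex1 row has a length of 1137 bases, so the overlap may take in most or all of it. Atrip fell from 12.2 ± 0.398 to 10.5 ± 1.04 CPM (-0.22 ± 0.08 on the log2 scale, edgeR adjusted p = 0.0425), in the opposite direction to Trex1. From which of these 2 genes the shared reads came was not tested. The groups did not overlap for 3 of the 8 genes, Mb21d1, Samhd1 and Trex1, while this held for 42.8% of all tested genes.

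**Figure D2:**
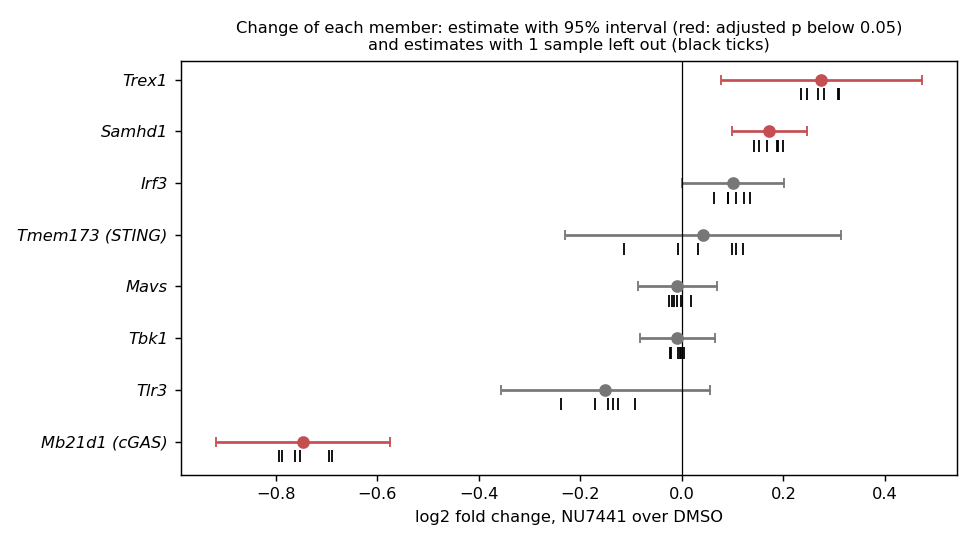
Log2 fold change of NU7441 over DMSO (horizontal axis) for each gene (vertical axis), with points for the estimate, bars for its 95% interval, red for an adjusted p below 0.05 and black ticks for the estimates with 1 sample left out. Mb21d1 at -0.75 lies apart from the other 7 genes, which lie between -0.15 and 0.27, and the ticks of Tmem173, Tbk1 and Mavs fall on both sides of 0.

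Levels of different genes were compared on the length-scaled RPKM of the table (reads per kilobase of gene length and 1e6 reads). In DMSO, Samhd1 was the highest at 23.8 ± 1.05 RPKM, above 86.9% of tested genes. Tbk1 at 10.2 ± 0.161 and Mavs at 9.64 ± 0.351 RPKM came next, followed by Irf3 at 7.97 ± 0.407 RPKM. The remaining 4 genes were lower, with Trex1 at 3.63 ± 0.183, Mb21d1 at 2.39 ± 0.164, Tmem173 at 1.6 ± 0.113 and Tlr3 at 1.19 ± 0.0402 RPKM, the last of these above 23.2% of tested genes. No neighbours in this order had overlapping ranges in the DMSO samples, although the lowest Tbk1 value, 10.06 RPKM, was close to the highest Mavs value, 10.02. In NU7441 the order differed in 1 place. Mb21d1 at 1.39 ± 0.0797 RPKM had moved below Tmem173 at 1.62 ± 0.313 RPKM, and the ranges of this pair overlapped.

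**Figure D3:**
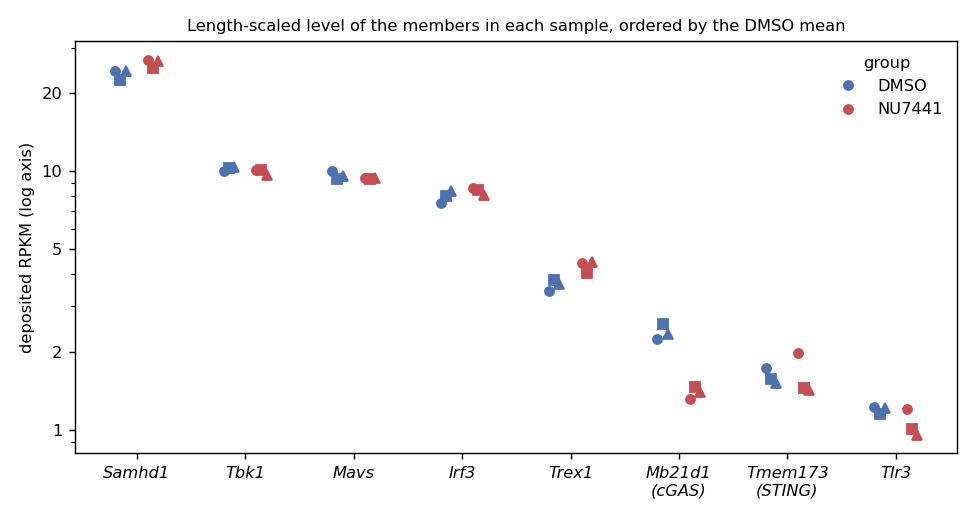
Deposited RPKM (vertical axis, log scale) of the 8 genes (horizontal axis, ordered by the DMSO mean) in the DMSO samples (blue) and NU7441 samples (red). Samhd1 stands highest in all 6 samples, and the Mb21d1 points drop from above 2.2 RPKM to the level of Tmem173.

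The genes whose log2 CPM followed Mb21d1 most closely over the 6 samples, among 8457 genes averaging at least 10 CPM, were Nav3 (Pearson r = 0.999), Mrpl18 (r = 0.998) and Gpsm2 (r = 0.998). Each of these also fell, Nav3 from 22.6 ± 1.42 to 14.7 ± 1.01 CPM. For Tmem173 they were Prrx2 (r = 0.990), Lrrcc1 (r = 0.988) and Chpt1 (r = 0.987), none of which passed the test. These correlations are descriptions over samples that share the group difference and the same libraries.

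The rest of the pathway was described with 9 lists of related genes, which hold 124 genes besides the 8. These lists, too, were chosen with earlier results of these data known. Of these 110 were tested, and 36 were called higher and 23 lower, against 14.1% and 16.6% of all tested genes in each direction. Their median log2 fold change was 0.05.

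Among DNA sensors and cGAS cofactors 4 of 14 tested genes fell, Mb21d1 included, 1 rose and 9 did not pass, with a median of -0.05. Over all tested genes 16.6% were called lower and 14.1% higher. G3bp1, a stress granule protein that helps cGAS bind DNA, fell from 222 ± 6.11 to 175.8 ± 2.77 CPM (-0.34 ± 0.03 on the log2 scale, edgeR adjusted p = 9.96e-07). Hmgb1, a chromatin protein that bends DNA, fell by 0.35 and Banf1, a factor that keeps cGAS off nuclear DNA, fell by 0.22 on the log2 scale. The gene that rose was Zbp1, a sensor of Z-form nucleic acid, at 0.77 ± 0.25, and it no longer passed when DMSO replicate 2 or 3 or NU7441 replicate 1 or 3 was left out, with the robust fit or on log2 RPKM. Without DMSO replicate 3 the log2 fold change of Zbp1 was 0.51. The other interferon-inducible DNA sensors of the list, Ifi204 (2.97 ± 0.323 CPM in DMSO and 3.09 ± 0.289 in NU7441) and Aim2 (2.44 ± 0.356 and 2.32 ± 0.369), named after their values were seen, did not pass. All 6 tested genes of DNA-PK and the MRE11 complex, which also bind DNA ends, were lower, with a median of -0.25 and with Mre11a (-0.40 ± 0.05), Rad50 (-0.30 ± 0.04), Nbn (-0.29 ± 0.05) and Xrcc6 (-0.22 ± 0.04) as the members with the lowest adjusted p. Prkdc, the catalytic subunit that NU7441 inhibits, was at -0.14 ± 0.04 (edgeR, adjusted p = 0.0163), and it no longer passed when DMSO replicate 2 or NU7441 replicate 1 was left out (adjusted p = 0.0611 and 0.0546) or on log2 RPKM with limma (0.0668, the highest of a range from 0.00279 over the alternatives).

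Among regulators of STING and of cGAMP 2 of 17 tested genes rose and 4 fell, near the 14.1% and 16.6% over all tested genes, with a median of 0.00. Npc1, a lysosomal cholesterol transporter that takes part in STING degradation, rose by 0.21 ± 0.04. Rnf26, a ubiquitin ligase that modifies STING, fell by 0.27, and Slc19a1, the folate carrier that can import cGAMP, fell by 0.25. Surf4, a cargo receptor, fell by 0.10, which no longer passed when DMSO replicate 2 or 3 or NU7441 replicate 2 was left out or with upper-quartile scaling. Leaving out any 1 library other than NU7441 replicate 3 left 1 gene that rose, and leaving out DMSO replicate 2 or 3 or NU7441 replicate 2 left 2 that fell.

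Genes of all 3 RIG-I-like receptors rose. Of 16 tested genes of RNA sensing and MAVS regulation 7 rose and 2 fell, with a median of 0.12. Over all tested genes 14.1% were called higher and 16.6% lower. On log2 RPKM with limma 4 genes of this list were called higher. Dhx58, which encodes LGP2, a helicase that modulates RIG-I and MDA5 signalling, had 5.29, 4.63 and 5.43 CPM in DMSO and 8.59, 8.12 and 8.70 CPM in NU7441, with no overlap (0.72 ± 0.09 on the log2 scale, edgeR adjusted p = 2.87e-05). Ifih1, the MDA5 gene, rose from 8.0 ± 0.738 to 10.7 ± 1.35 CPM (0.42 ± 0.10, edgeR adjusted p = 0.00376). Ddx58, the RIG-I gene, rose from 81.1 ± 4.09 to 93.7 ± 8.53 CPM (0.21 ± 0.05, edgeR adjusted p = 0.00959), which did not hold with DMSO replicate 3 left out (adjusted p = 0.0551), with the robust fit (0.0575) or on log2 RPKM with limma (0.116, the highest of a range from 6.2e-05 over the alternatives), while without NU7441 replicate 1 the log2 fold change of Ddx58 was 0.13. Ifih1 and Ddx58 are named here as the main sensors, after their values were seen. Trim25, the ubiquitin ligase of RIG-I, rose by 0.23 ± 0.03. The genes that fell were Dhx9 (-0.27 ± 0.03), a nuclear helicase, and Tomm70a (-0.23 ± 0.03), the mitochondrial import receptor that MAVS can engage.

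Around Tlr3, the adaptor gene Ticam1 rose by 0.14 ± 0.05 (edgeR, adjusted p = 0.048) and the chaperone Hsp90b1, which folds Toll-like receptors among other clients, fell by 0.33. These were the 2 calls among 8 tested genes of the endosomal receptor list (median -0.01), 1 in each direction, near the shares over all tested genes. The call for Ticam1 was kept without DMSO replicate 3 and lost without any other library; without DMSO replicate 1 its log2 fold change was 0.09. The list had 2 genes higher without DMSO replicate 3 and 2 lower without NU7441 replicate 1. The receptor genes Tlr7, Tlr8 and Tlr9 and the transport factor Unc93b1 were removed by the low-count filter, and Tlr8 was listed at 0 in every sample.

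Around Tbk1 and Irf3, 3 of 18 tested genes rose and 2 fell, near the 14.1% and 16.6% over all tested genes, with a median of 0.07. Ikbke, the kinase closest to TBK1, rose from 17.8 ± 0.507 to 22.4 ± 0.949 CPM (0.33 ± 0.05, edgeR adjusted p = 0.000158). Its difference from Tbk1 was not tested. Irf7, the interferon-inducible relative of IRF3, had 3.02, 2.65 and 2.98 CPM in DMSO and 7.26, 4.30 and 6.40 CPM in NU7441 (1.04 ± 0.16), and Irf9, the DNA-binding part of the interferon response complex, rose by 0.58 ± 0.10. The adaptor Traf3 fell by 0.16. The fifth call was Chuk (-0.14 ± 0.04), an NF-kB kinase, named after its value was seen. With upper-quartile scaling the number that rose was 6.

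Genes listed under clearance and editing of nucleic acids went both ways. Of 14 tested genes 6 rose, Trex1 and Samhd1 included, and 5 fell, with a median of 0.01. The shares over all tested genes were 14.1% higher and 16.6% lower. All 3 subunits of ribonuclease H2, which removes ribonucleotides from DNA, fell: Rnaseh2c by 0.39 and Rnaseh2a by 0.31 on the log2 scale, and Rnaseh2b, named here as the remaining subunit after its value was seen, by 0.29. Adar, which edits adenosines in double-stranded RNA, rose by 0.18 ± 0.04, a call not made on log2 RPKM with limma (adjusted p = 0.0872).

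**Figure D4:**
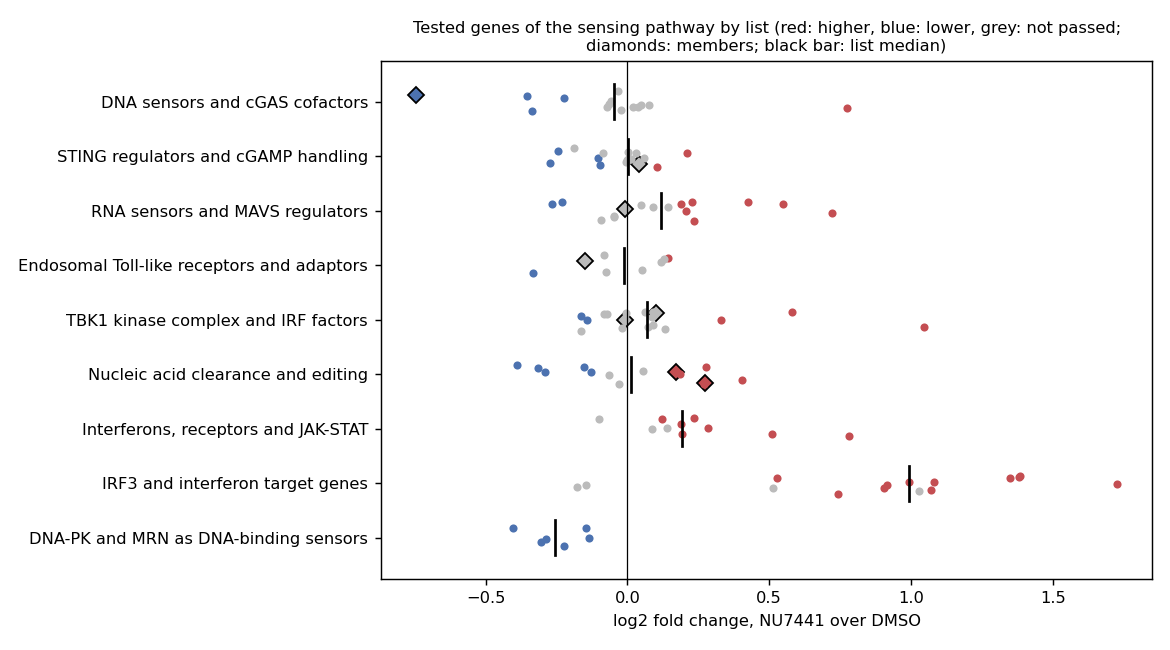
Log2 fold change of NU7441 over DMSO (horizontal axis) for each tested gene of the 9 lists (rows), with red for genes called higher, blue for genes called lower and grey for the rest; diamonds are the 8 genes described above and black bars are list medians. The interferon target list has its median at 0.99 and the DNA-PK and MRE11 complex list at -0.25, while the other list medians lie between -0.05 and 0.19.

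At the output of the pathway, interferon transcripts themselves were at or near 0. Ifnb1, which encodes interferon beta, had 2 counts in NU7441 replicate 2 and 0 in the other 5 samples. Ifna2, Ifna4, Ifnl2 and Ifnl3 were at 0 in every sample, where a count of 0 allows up to 3 read pairs, or 0.0842 to 0.127 CPM by sample (counting error only). The receptor and signalling genes were expressed. For the 2 list counts that follow, the shares over all tested genes were 14.1% called higher and 16.6% called lower. Of 10 tested genes of the interferon and JAK-STAT list 7 rose and 0 fell (median 0.19), among them Stat2 (0.51 ± 0.06), Socs3 (0.28 ± 0.06), the receptor chain Ifnar1 (0.19 ± 0.03) and the kinase Tyk2 (0.19 ± 0.04). The number of these genes called higher was 4 on log2 RPKM with limma, where Tyk2 was not among them (adjusted p = 0.0511). Of 15 tested targets of IRF3 and interferon 11 rose and 0 fell, with a median of 0.99, among them Ifit1 (1.39 ± 0.25), Oasl2 (0.92 ± 0.17), Ifit3 (0.99 ± 0.19) and Rtp4 (1.07 ± 0.22). A robust fit called 5 of them higher, without Ifit1, Oasl2 and Rtp4 (adjusted p = 0.0886, 0.102 and 0.0776), and without NU7441 replicate 1 8 rose and 1 fell and the median was 0.61. Ifit2 (20.7 ± 0.97 CPM in DMSO and 18.7 ± 1.64 in NU7441) and Cxcl10 (0.654 ± 0.212 and 0.567 ± 0.241), named after their values were seen, did not pass. The macrophage marker Cd14 also rose, a call that was lost without DMSO replicate 3. Of the macrophage and dendritic cell markers tested, 4 did not pass, and Ptprc and Adgre1 were at 0 in every sample. A link between Cd14 and these targets was not tested.

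NU7441 replicate 1 stood apart in the levels of the interferon targets. Of the 15 tested targets 13 had their highest value in that sample, and their summed level was 118 CPM there, against 70.8 and 92.6 CPM in NU7441 replicates 2 and 3 and 53.5 to 70.5 CPM in DMSO. The same sample held the highest Tmem173 value and the highest Tlr3 value of its group, and it held the lowest Mb21d1 value of all 6. Without it the log2 fold change of Samhd1 was 0.17 and that of Mb21d1 was -0.69, and both calls were kept. Whether the higher target levels in that sample are linked to its values of Tmem173 and Tlr3 was not tested.

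**Figure D5:**
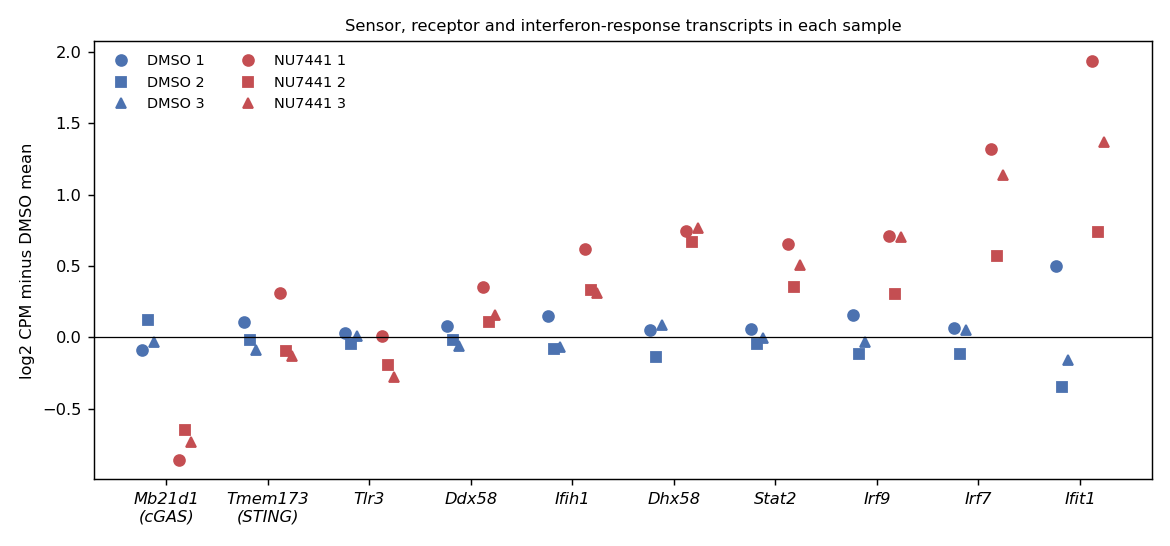
Log2 CPM of each sample less the mean of the DMSO samples (vertical axis) for 10 genes (horizontal axis), with blue for DMSO, red for NU7441 and circles, squares and triangles for samples 1, 2 and 3. Mb21d1 is the only one of these genes with all NU7441 samples below all DMSO samples, and NU7441 sample 1 is the highest for Tmem173, Ddx58, Ifih1, Stat2, Irf9, Irf7 and Ifit1.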

How the data were processed

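Per the submitters' processing notes, reads were handled with bcl2fastq, TopHat2 version 2.0.6 and HTSeq on mm10; their settings are not given in the sources used here. Per the file headers, the deposited table gives for every gene row its length and, for every sample, the count and the RPKM. The deposited counts hold 0 odd values, as when both mates of a pair are counted; 0 sample columns were unmapped. Low rows were removed by filterByExpr (at least 10 counts, total of 15), and the rest were scaled by TMM and tested in edgeR 4.0.16 in R 4.3.3 (quasi-likelihood, group as the only term, two-sided, Benjamini-Hochberg over 13784 genes, threshold 0.05). The SE is the log2 fold change divided by the square root of F. Deposited RPKM served to order genes by level and, as log2(RPKM + 0.1), for an alternative in limma 3.58.1; DESeq2 1.42.0 was another. log2 CPM for correlations used a prior count of 2. The procedure was tested on simulated counts.

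The members and lists were chosen with earlier results of these data known. Of the genes counted in the lists, 2 are not reported here by name. Named genes are the 8 members, Prkdc, Ifnb1, Irf7 and up to 4 genes per list with the lowest adjusted p among those that passed, genes removed by the filter, and the 3 genes most correlated with Mb21d1 and with Tmem173; others are said to be named after their values were seen or are partners sharing exons. The Mb21d1 row was matched through the RefSeq synonym after the table was seen. Coordinates are those of the table on mm10, strands and overlaps those of GENCODE M21 on the same assembly. In each group every pair of samples differed by more than sampling noise (chi-square per degree of freedom 4.12 to 9.93 on halved counts), so none was treated as 1 library deposited in duplicate. Separate cultures are not shown by this.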

Additional observations from a re-analysis of the deposited data

How the results depend on the processing

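Over 15 alternatives (4 scalings or filters, a robust fit, halved counts, a replicate block, DESeq2, RPKM with limma and each library left out) Mb21d1 stayed called lower, with log2 fold changes from -0.79 to -0.69, and Samhd1 stayed called higher, from 0.14 to 0.20. The number of the 8 genes called higher was 1 with DESeq2 and 1 to 2 with 1 library left out, through Trex1, which kept its direction in all 15; the number called lower was 1 throughout. The count over all genes ran from 3466 to 5120. The sign turned, in no case past the threshold, for Tbk1 (0.0165 with upper-quartile scaling; -0.0232 to 0.0045 with 1 library left out), Mavs (0.0168 with upper-quartile scaling; -0.026 to 0.0187 with 1 library left out) and Tmem173 (-0.0015 on log2 RPKM; -0.114 to 0.12 with 1 library left out, and -0.0077 without DMSO replicate 3); the cause was not tested. Calls over all genes were 45.9% higher, but 56.5% with upper-quartile scaling, 37.7% with library size only and 30.9% on log2 RPKM.

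Equal sample numbers are not stated to mark a shared experiment. Deviations of same-numbered samples correlated at 0.134, 0.088 and 0.0471, and each sample correlated best with its own number, a hint from the data only. With the replicate block 5120 genes were called, against 4231, and of the 8 genes 2 higher and 1 lower. Tmem173, Trex1 and Tlr3 had between 228 and 494 counts per sample, so small changes in them are the least well resolved.

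List counts that moved by over 1.5 times with all libraries kept were these. STING regulators had 1 higher, in place of 2, with library size only, without a low-count filter, with DESeq2 and on log2 RPKM, and 2 lower, in place of 4, with upper-quartile scaling. Endosomal receptor genes had 2 higher, in place of 1, with upper-quartile scaling or the replicate block, 0 with library size only, without a filter, with halved counts, with DESeq2 and on log2 RPKM, and 2 lower, in place of 1, with the block. TBK1 and IRF genes had 6 higher, in place of 3, with upper-quartile scaling and 5 with the block. DNA sensors had 0 higher, in place of 1, with the robust fit and on log2 RPKM, RNA sensors 4, in place of 7, and JAK-STAT genes 4, in place of 7, on log2 RPKM. Interferon targets had 5 higher, in place of 11, with the robust fit, and 1 lower, in place of 0, with the block.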
